A study of Mus musculus with 768 samples.

Results

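High endothelial venule (HEV) cells of the lymph node, called LN_HEV, were compared with MECA-79-negative tumour endothelial cells, called TU_EC. LN_HEV cells came from mouse lymph node and were sorted as CD45-CD31+MECA79+, and TU_EC cells came from tumours of the PyMT breast cancer model in mice and were sorted as CD45-CD31+MECA79-. CD31 is the endothelial surface protein encoded by Pecam1, CD45 marks leukocytes, and MECA-79 is an antibody to sulfated sugars on HEV. In all, 446 libraries of the 768 in the series were used, each from 1 sorted cell: 65 and 82 cells of the LN_HEV plates pool1 and pool2, and 66, 80, 81 and 72 cells of the TU_EC plates poolA to poolD, of 96 wells a plate. The cells kept had 50000 or more counts, 1000 or more genes with a count, no more than 30% of counts in mitochondrial genes, and 2 or more of the genes Pecam1, Cdh5, Tie1, Egfl7 and Eng at 10 CPM (counts scaled to a total of 1000000) or above. The series also holds MECA-79-positive cells of PyMT tumours (TU_HEV), whose values are given only beside those of the members described. The labels give no animal, strain, age or count of animals for either group, so each group is 1 sample and no test was made. The plates are given side by side in that order. Intervals below cover counting error only.

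HEV are the venules through which naive lymphocytes enter lymph nodes from the blood. Their tall endothelial cells decorate mucin-like proteins with sulfated, fucosylated and sialylated sugars, which L-selectin on lymphocytes binds, and they present the chemokine CCL21, which arrests the rolling cells. Tumour vessels are in large part growing vessels, with tip cells that lead sprouts, a basement membrane under reconstruction, and active VEGF and Notch signalling.

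Summed counts of the kept cells were 124317850 for LN_HEV and 152620639 for TU_EC, with a median of 888398 (73585 to 1577228) and 431630 (56870 to 1709153) counts per cell. At these depths 3 counts over a group, to which lower counts were raised in log2 ratios, in rankings and in folds against 0 counts, were worth 0.0241 CPM in LN_HEV and 0.0197 CPM in TU_EC. Totals leave out 2 ribosomal RNA features, which took a median of 9.60% of counts in LN_HEV cells and 30.0% in TU_EC cells (28.9% in pool1 and 7.14% in pool2). The 11 libraries left out of pool1 hold the counts of TU_HEV libraries. A further 3 libraries of pool1 that were kept hold small TU_HEV libraries, with 0.123% of the LN_HEV counts, ribosomal RNA included. In these, S26, S29 and S33, TU_HEV counts were 63957 of 96741, 29742 of 217544 and 88875 of 1275016. LN_HEV and TU_EC were deposited in separate files with separate series of library numbers, so tissue, sort gate and library set cannot be told apart. The 5 genes used to choose the cells were present by that choice, with Pecam1 at 2594 CPM in LN_HEV and 2419 CPM in TU_EC and Egfl7 at 2056 CPM in LN_HEV and 1663 CPM in TU_EC, and with Cdh5, Tie1 and Eng at least 2-fold lower in LN_HEV (Cdh5 at 132.96 CPM in LN_HEV and 559 CPM in TU_EC). Of 12 endothelial genes not used for that choice, which check the endothelial label, each had counts in both groups, 1 was at least 2-fold higher and 7 at least 2-fold lower, with a median log2 ratio of -1.11. Clec14a was the one higher (1099 CPM in LN_HEV and 477 CPM in TU_EC), Ramp2 and Mmrn2 were close (646 CPM in LN_HEV and 626 CPM in TU_EC for Ramp2), and Ptprb, Cldn5 and Kdr were called lower (38.5 CPM in LN_HEV and 674 CPM in TU_EC for Ptprb).

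Promoter sequences are shown for Glycam1 and Chst4, the genes with the highest LN_HEV to TU_EC ratios, and for Igfbp3 and Col4a1, which were among the most abundant in TU_EC and low in LN_HEV. Each runs 5′ to 3′ from 250 bases before to 50 after the RefSeq gene start in build GRCm38.p6, and capitals mark each CG dinucleotide. The windows are chr15:103565032-103565331 for Glycam1, chr8:110039285-110039584 for Chst4, chr11:7213874-7214173 for Igfbp3 and chr8:11312777-11313076 for Col4a1, all on the minus strand.
Glycam1: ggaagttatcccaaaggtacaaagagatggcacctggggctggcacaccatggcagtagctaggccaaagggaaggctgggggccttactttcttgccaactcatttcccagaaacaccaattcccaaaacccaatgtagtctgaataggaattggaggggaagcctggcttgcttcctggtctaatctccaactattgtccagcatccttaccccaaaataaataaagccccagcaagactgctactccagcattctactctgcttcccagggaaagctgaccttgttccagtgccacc
Chst4: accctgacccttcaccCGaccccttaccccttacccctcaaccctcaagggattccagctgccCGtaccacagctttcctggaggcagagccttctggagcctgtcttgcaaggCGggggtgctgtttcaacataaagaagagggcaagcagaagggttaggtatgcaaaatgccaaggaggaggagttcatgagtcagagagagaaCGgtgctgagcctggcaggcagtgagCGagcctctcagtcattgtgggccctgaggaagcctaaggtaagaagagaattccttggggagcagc
Igfbp3: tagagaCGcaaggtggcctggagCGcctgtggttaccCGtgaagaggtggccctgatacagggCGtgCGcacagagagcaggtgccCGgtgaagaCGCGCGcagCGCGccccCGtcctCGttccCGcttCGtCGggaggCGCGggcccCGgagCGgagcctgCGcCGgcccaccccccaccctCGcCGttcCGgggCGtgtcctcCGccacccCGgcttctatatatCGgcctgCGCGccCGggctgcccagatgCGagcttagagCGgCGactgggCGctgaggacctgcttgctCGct
Col4a1: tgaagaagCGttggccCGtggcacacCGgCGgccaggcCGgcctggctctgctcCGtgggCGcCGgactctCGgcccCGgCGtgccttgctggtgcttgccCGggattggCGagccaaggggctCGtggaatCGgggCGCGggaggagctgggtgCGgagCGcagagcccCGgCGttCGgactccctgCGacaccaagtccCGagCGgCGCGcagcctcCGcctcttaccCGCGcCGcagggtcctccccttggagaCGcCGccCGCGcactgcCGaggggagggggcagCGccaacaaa
The Glycam1 window holds 0 CG and the Chst4 window 5, against 37 in the Igfbp3 window and 37 in the Col4a1 window. Of 32851 windows of the same length in the RefSeq table, 5.43% hold no CG, 43.6% hold 5 or fewer and 5.58% hold 37 or more. The window of Col4a2, on the plus strand at chr8:11312555-11312854, overlaps that of Col4a1 by 78 bases, since the 2 collagen genes are transcribed away from each other. A count of CG describes the letters of these windows and says nothing of methylation, which was not measured.

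**Figure D1:**
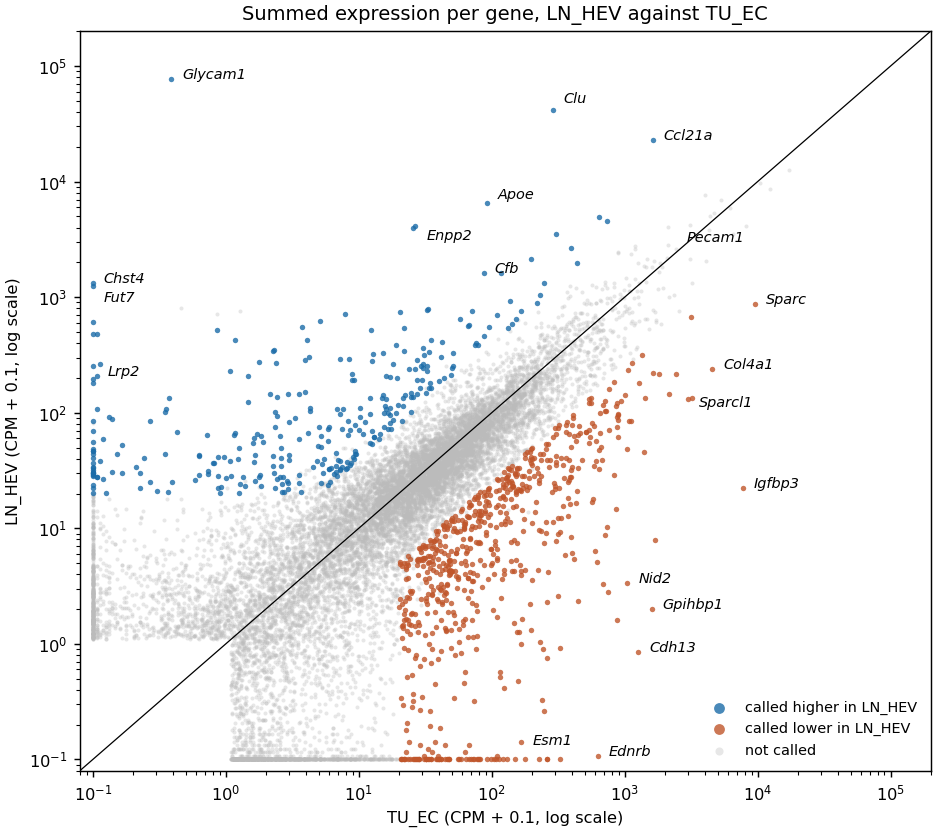
Each point is 1 gene, with its summed expression in TU_EC on the x axis and in LN_HEV on the y axis (CPM + 0.1, log scales), and the line marks equal levels. Blue points are the genes called higher in LN_HEV (3.85%) and orange points the 673 called lower (8.39%); Glycam1, Chst4 and Fut7 lie at the upper left, and Igfbp3, Gpihbp1 and Cdh13 at the lower right.

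A gene was called when its summed CPM differed at least 4-fold between the groups, reached 20 CPM in the higher one, and differed at least 2-fold the same way in each of the 8 pairs of an LN_HEV plate with a TU_EC plate. Of 8018 genes tested, 3.85% were called higher and 8.39% (673 genes) lower in LN_HEV, and the median log2 ratio of all of them was -0.20. These shares stand beside the called members of the gene lists below, which are counted among members with 5 CPM in a group. For list members counted at 2-fold, the shares over 11363 genes with 5 CPM were 13.6% higher and 22.6% lower. The gaps were large: 72 called genes were at least 100-fold higher, which is 23.3% of those called higher, and 17.5% of those called lower were at least 100-fold lower. Of the genes called higher, 28 had 0 counts in TU_EC, and of those called lower, 61 had 0 counts in LN_HEV. Between plates of the same group, 2.85% of genes differed 4-fold in the LN_HEV pair and 2.43% to 3.68% in the TU_EC pairs, against 16.0% to 17.8% between an LN_HEV and a TU_EC plate.

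The gene with the highest level in LN_HEV was Glycam1, a secreted mucin that carries L-selectin ligands, with 100337 and 65276 CPM in the LN_HEV plates, against 0, 0, 0.419 and 0.806 CPM in the TU_EC plates. Its 44 counts in TU_EC came from poolC and poolD, and the summed ratio was 268491 (95% counting interval 200000 to 369516). Chst4, the sulfotransferase that makes the sulfated sugar read by MECA-79, had 1120 and 1453 CPM in the LN_HEV plates, against 0 CPM in all 4 TU_EC plates. Fut7, the fucosyltransferase of the sialyl Lewis X sugars that selectins bind, had 1153 and 1303 CPM in the LN_HEV plates, against 0 CPM in all 4 TU_EC plates. Against the floor of 3 counts over TU_EC, Chst4 was 68049-fold and Fut7 63657-fold higher, with lower 95% counting limits of 55340 and 51769. LN_HEV cells were sorted by the sulfated sugar that Chst4 makes, so the contrast of Chst4 is not independent of the gate.

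Several of the other genes with the largest ratios do not belong to the L-selectin ligand pathway. Oit1 had 513 and 456 CPM in the LN_HEV plates, against 0 CPM in all 4 TU_EC plates. Tox2, a nuclear HMG-box protein, had 331.8 and 210.7 CPM in the LN_HEV plates, against 0 CPM in all 4 TU_EC plates. No TU_EC plate held a count of either gene. Dclk1, a microtubule-associated kinase, had 547 and 448 CPM in the LN_HEV plates, against 0, 0, 0.0233 and 0 CPM in the TU_EC plates. Lrp2, the endocytic receptor megalin, had 231.2 and 195.9 CPM in the LN_HEV plates, against 0, 0, 0.0233 and 0 CPM in the TU_EC plates. Taken as it is, the single count in poolC gives Dclk1 a ratio of 73591 (95% counting interval 13208 to 2906740) and Lrp2 a ratio of 31761 (5700 to 1254540), and raised to 3 counts it gives 24530 for Dclk1 and 10587 for Lrp2. Ptgds, a prostaglandin D synthase, had 206.2 and 292.8 CPM in the LN_HEV plates, against 0, 0, 0 and 0.0620 CPM in the TU_EC plates. Further genes with the largest ratios were Nefh, Rassf6, Nxph1, Pde1c, Necab2 and Chrnb4, at 59.2 to 197.2 CPM in LN_HEV and at most 5 counts in TU_EC. Nefh encodes a neurofilament subunit, Nxph1 a neurexin ligand and Chrnb4 a nicotinic acetylcholine receptor subunit, all known best from neurons.

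**Figure D2:**
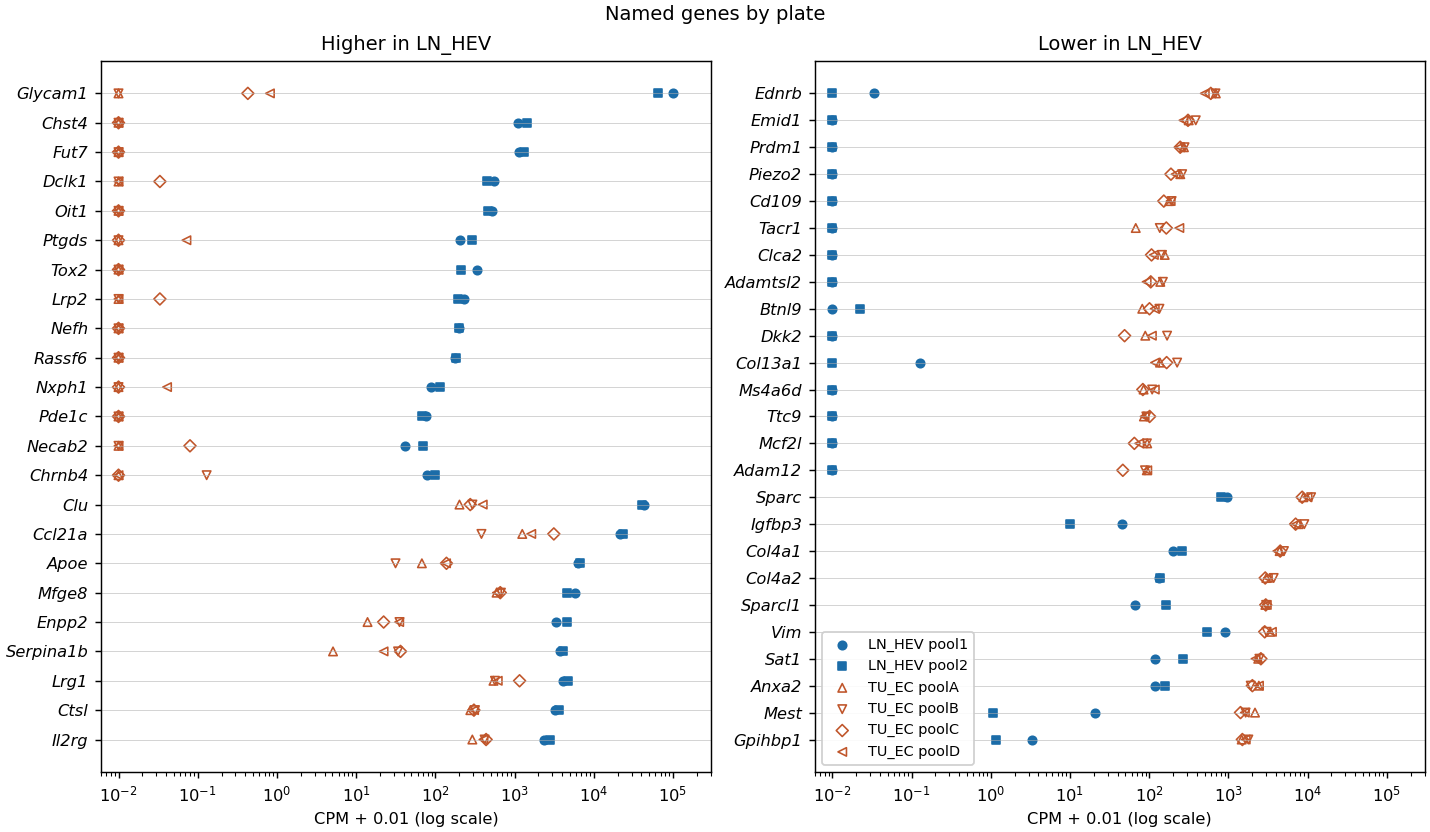
Each row is a named gene and each marker its summed expression in 1 plate (CPM + 0.01, log scale), filled blue for the 2 LN_HEV plates and open orange for the 4 TU_EC plates. In no row do the markers of the groups overlap, which the rule for calling genes required of every named gene. Lrg1 comes closest among the genes on the left, with 4111 and 4798 CPM in the LN_HEV plates and a TU_EC plate at 1158 CPM.

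By difference in level, Glycam1 was followed by Clu, a secreted chaperone, with 42984 and 40450 CPM in the LN_HEV plates, against 201.8, 293.8, 276.1 and 396 CPM in the TU_EC plates. Apoe, the apolipoprotein of lipid transport, had 6251 and 6667 CPM in the LN_HEV plates, against 67.6, 31.4, 138.2 and 136.5 CPM in the TU_EC plates. Enpp2, the secreted enzyme autotaxin that makes lysophosphatidic acid at HEV, had 3352 and 4552 CPM in the LN_HEV plates, against 13.9, 35.3, 22.3 and 35.0 CPM in the TU_EC plates. Between the summed groups the ratios of these 3 genes were 142.99, 70.8 and 155.7. Serpina1b, a serine protease inhibitor with near-identical copies whose reads may be split, had 3752 and 4040 CPM in the LN_HEV plates, against 5.10, 33.9, 36.3 and 22.2 CPM in the TU_EC plates. Smaller ratios were found for Mfge8, a secreted protein that bridges dying cells to phagocytes (4986 CPM in LN_HEV and 636 CPM in TU_EC), Ctsl, a lysosomal protease (3516 CPM in LN_HEV and 302.97 CPM in TU_EC), and Lrg1, a secreted glycoprotein of HEV and inflamed vessels (4561 CPM in LN_HEV and 737 CPM in TU_EC). Il2rg, the common cytokine receptor chain known from lymphocytes, was at 2640 CPM in LN_HEV and 392 CPM in TU_EC. Of the LN_HEV cells 5 carried 3 or more leukocyte markers, and each of the others held Il2rg counts, at 2606 CPM over those cells, with Ptprc (CD45) at 6.39 CPM.

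LN_HEV cells were sorted for MECA-79 and TU_EC cells for its absence, so genes that make its epitope are not independent of the gate. The 13 genes of MECA-79 epitope and L-selectin ligand synthesis were not all higher. Their median log2 ratio was 1.89 over 13 measured members, 8 of them at least 2-fold higher and 2 at least 2-fold lower, beside 13.6% of 11363 genes with 5 CPM in a group that were at least 2-fold higher and 22.6% that were at least 2-fold lower. In this list 5 were called higher and 0 lower. Beside Chst4 and Fut7, these were Gcnt1, which starts the core 2 branch of O-linked sugars (280.4 CPM in LN_HEV and 12.4 CPM in TU_EC), St3gal6, a sialyltransferase (573 CPM in LN_HEV and 67.9 CPM in TU_EC), and Papss2, which makes the sulfate donor PAPS (340.3 CPM in LN_HEV and 21.7 CPM in TU_EC). Other enzymes of the same steps were not called. Chst2, the second sulfotransferase, was at 235.2 CPM in LN_HEV and 63.5 CPM in TU_EC, a log2 ratio of 1.89, higher but under 4-fold. Papss1, the second PAPS synthase, was at 37.1 CPM in LN_HEV and 142.4 CPM in TU_EC, and St3gal4 at 155.2 CPM in LN_HEV and 118.5 CPM in TU_EC. B3gnt3, which extends the core 1 branch that bears the MECA-79 sugar, was at 37.2 CPM in LN_HEV and 66.6 CPM in TU_EC.

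The protein carriers of these sugars did not move one way. Among 9 measured sialomucins and addressins the median log2 ratio was 0.05, and it lay between -0.56 and 0.34 under other settings. Cd34, a sialomucin of endothelium in general, was at 1039 CPM in LN_HEV and 2336 CPM in TU_EC. Podxl had 17.6 and 24.3 CPM in the LN_HEV plates, against 198.4, 383.5, 282.4 and 329.6 CPM in the TU_EC plates. Parm1, a mucin-like membrane protein, had 164.9 and 117.7 CPM in the LN_HEV plates, against 26.3, 40.2, 13.4 and 2.32 CPM in the TU_EC plates, and counts were found in 62.1% of LN_HEV cells and 2.43% of TU_EC cells after each cell was thinned to 100000 counts. Madcam1, the addressin that binds the gut-homing integrin, was called higher at 28.4 CPM in LN_HEV and 1.00 CPM in TU_EC, but in few cells (4.14% of LN_HEV cells and 0.347% of TU_EC cells). Cd300lg, known as a ligand of L-selectin under the name nepmucin, was at 975 CPM in LN_HEV and 373.2 CPM in TU_EC. Mcam, an adhesion molecule of endothelium and mural cells, had 49.3 and 68.8 CPM in the LN_HEV plates, against 923, 1058, 702 and 860.4 CPM in the TU_EC plates.

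Chemokines also split. Of 12 measured chemokines and their receptors 4 were called higher and 5 lower. Ccl21a, the chemokine that arrests lymphocytes on HEV, had 21229 and 23738 CPM in the LN_HEV plates, against 1252, 382.3, 3135 and 1626 CPM in the TU_EC plates. In TU_EC, 8 cells that carried lymphatic endothelial markers such as Prox1 held 247359 of the 247620 counts, and the other cells were at 1.79 CPM. Without these 8 cells the log2 ratio was 13.64, against 3.82 with them. Mice carry near-identical copies of Ccl21a, and reads of these cannot be told from its own. Cxcl1, a neutrophil attractant, was called higher at 315.6 CPM in LN_HEV and 30.9 CPM in TU_EC, as were Ackr1, the chemokine receptor of venules that does not signal (885 CPM in LN_HEV and 220.1 CPM in TU_EC), and Ccl19, a fellow ligand of the CCL21 receptor, at a low level (20.0 CPM in LN_HEV and 0 CPM in TU_EC). Without 1 cell of pool1 that carried fibroblast and reticular cell markers, Ccl19 was at 6.23 CPM in LN_HEV and was not called. Cxcl9, an interferon-induced T cell attractant, had 21.5 and 14.4 CPM in the LN_HEV plates, against 593, 1171, 200.8 and 262.3 CPM in the TU_EC plates. Cxcl12 was at 67.0 CPM in LN_HEV and 648 CPM in TU_EC, and its receptors Cxcr4 and Ackr3 were at 0 CPM in LN_HEV and 38.6 CPM in TU_EC and at 1.21 CPM in LN_HEV and 196.5 CPM in TU_EC. Counts of Cxcr4 were present in 0 thinned LN_HEV cells, which allows a share of up to 2.07% (3 cells of those thinned), and in 37.2% of thinned TU_EC cells.

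Complement genes were higher in LN_HEV, with a median log2 ratio of 3.02 over 11 measured members, 7 of them at least 2-fold higher and 2 at least 2-fold lower. In this list 5 were called higher and 0 lower. Cfb, factor B of the alternative pathway, had 1385 and 1729 CPM in the LN_HEV plates, against 60.9, 78.6, 92.7 and 121.4 CPM in the TU_EC plates. C1s1, a protease of the classical pathway, had 593 and 770.1 CPM in the LN_HEV plates, against 8.91, 2.99, 9.74 and 9.95 CPM in the TU_EC plates. C1ra, its activating protease, was at 338.3 CPM in LN_HEV and 33.6 CPM in TU_EC, and Cd55, a membrane inhibitor of complement, at 300.5 CPM in LN_HEV and 41.6 CPM in TU_EC; Clu is the fifth. The central component C3 was at 31.6 CPM in LN_HEV and 3.90 CPM in TU_EC, and its LN_HEV counts all came from 1 cell of pool1, which carried 3 fibroblast and reticular cell markers. Without that cell C3 was at 0 CPM in LN_HEV, and of 10 complement genes then measured 6 were at least 2-fold higher and 2 at least 2-fold lower, with a median log2 ratio of 2.84, 5 called higher and 1 lower.

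Genes of lipid and lysolipid handling differed gene by gene. Of the lysophospholipid genes, Enpp2 and Sphk1, which makes sphingosine 1-phosphate (93.2 CPM in LN_HEV and 2.34 CPM in TU_EC), were called higher. The lipid phosphatases Plpp1 and Plpp3, which break such lipids down, were called lower (35.4 against 341.8 CPM and 66.4 against 460.4 CPM in LN_HEV and TU_EC). S1pr1, the sphingosine 1-phosphate receptor of endothelium, was at 593 CPM in LN_HEV and 1125 CPM in TU_EC, and its exporter Spns2 at 101.4 CPM in LN_HEV and 94.6 CPM in TU_EC. Among lipoprotein genes Pltp, the phospholipid transfer protein, had 601 and 474 CPM in the LN_HEV plates, against 7.48, 13.4, 3.03 and 28.3 CPM in the TU_EC plates. Ggt5, an enzyme of leukotriene processing, had 443 and 291.1 CPM in the LN_HEV plates, against 0, 0, 4.40 and 4.31 CPM in the TU_EC plates. Nos3, the endothelial nitric oxide synthase, was at 20.5 CPM in LN_HEV and 286.05 CPM in TU_EC, and Edn1, the endothelin-1 gene, at 1.79 CPM in LN_HEV and 50.9 CPM in TU_EC.

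Genes that immune cells respond to and the lymphotoxin pathway, which maintains HEV, were examined next. The 15 lymphotoxin and NF-kB genes had a median log2 ratio of 1.22 over 15 measured members, 8 of them at least 2-fold higher and 1 at least 2-fold lower, and 2 were called higher and 0 lower. The 2 called were Birc2, an inhibitor of apoptosis in the receptor complexes (237.3 CPM in LN_HEV and 23.9 CPM in TU_EC), and Tnfrsf11a, the receptor RANK (28.5 CPM in LN_HEV and 6.75 CPM in TU_EC). Relb and Nfkb2 encode the transcription factors of the non-canonical pathway. Relb had 202.1 and 157.6 CPM in the LN_HEV plates, against 38.7, 50.6, 61.1 and 38.7 CPM in the TU_EC plates, and Nfkb2 was at 166.2 CPM in LN_HEV and 43.8 CPM in TU_EC, both under 4-fold between the summed groups. The receptor gene Ltbr was lower in LN_HEV, at 66.0 CPM in LN_HEV and 154.9 CPM in TU_EC. Il15, a cytokine that sustains lymphocytes, was called higher at 143.2 CPM in LN_HEV and 22.3 CPM in TU_EC, and Tnfsf10 (TRAIL) at 178.95 CPM in LN_HEV and 34.4 CPM in TU_EC. Cd276 (B7-H3), an immune checkpoint ligand, had 0.256 and 3.70 CPM in the LN_HEV plates, against 404, 237.4, 322.01 and 316.9 CPM in the TU_EC plates. Il6 had 0 CPM in both LN_HEV plates, against 5.88, 8.21, 93.2 and 49.7 CPM in the TU_EC plates. Ubd, an interferon- and TNF-induced ubiquitin-like gene, had 1314 and 1755 CPM in the LN_HEV plates, against 175.4, 237.2, 35.2 and 8.90 CPM in the TU_EC plates, so the TU_EC plates lay far apart while none reached the LN_HEV plates.

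Of MHC class I genes 0 of 11 were called, beside 3.85% called higher and 8.39% called lower of all genes tested. H2-D1 was at 9792 CPM in LN_HEV and 10463 CPM in TU_EC, B2m at 7656 CPM in LN_HEV and 3999 CPM in TU_EC, and these genes, like other H2 genes, share reads with close copies. The MHC class II chaperone Cd74 was at 1232 CPM in LN_HEV and 834 CPM in TU_EC, while counts were found in 96.6% of LN_HEV cells and 39.2% of TU_EC cells. Interferon-stimulated genes had a median log2 ratio of -1.07 over 19 measured members, 1 of them at least 2-fold higher and 12 at least 2-fold lower, and 0 were called higher and 3 lower. The 3 were the GTPases Igtp, Gbp2 and Gbp3, of which Gbp2 had 62.7 and 61.7 CPM in the LN_HEV plates, against 745, 768, 342.9 and 303.4 CPM in the TU_EC plates.

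**Figure D3:**
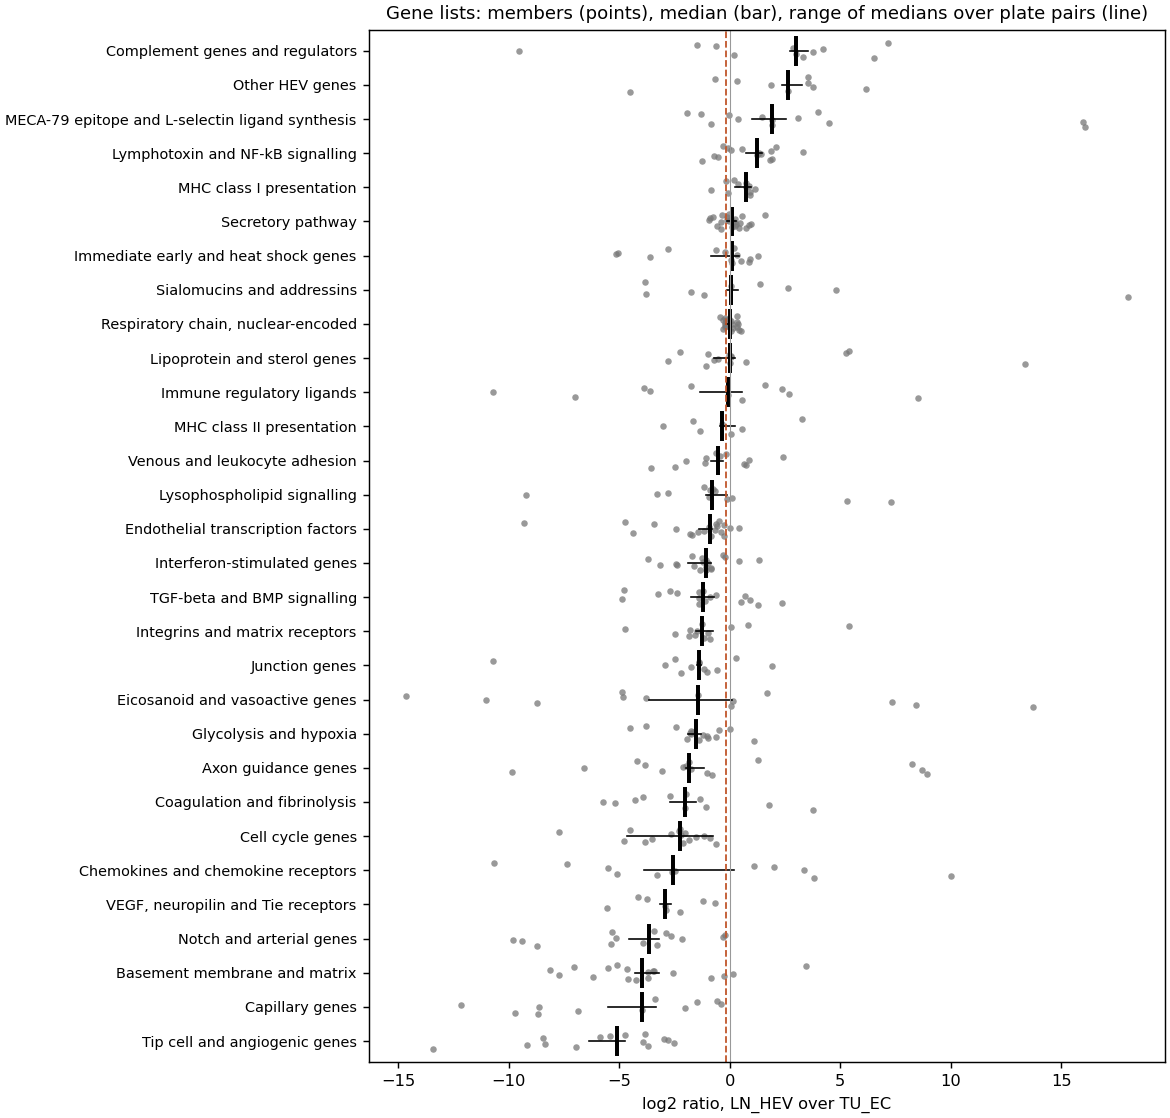
Each row is a gene list, each grey point a measured member, the thick bar the median log2 ratio of LN_HEV over TU_EC and the thin line the range of medians over the 8 plate pairs. The dashed line marks the median of all genes with 5 CPM in a group, -0.18; complement genes lie farthest to the right at 3.02, and tip cell genes farthest to the left at -5.09.

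The genes lower in LN_HEV included most of the angiogenic lists. Of 14 tip cell and angiogenic genes 0 were called higher and 14 lower, with a median log2 ratio of -5.09. Esm1, a secreted marker of tip cells, had 0 CPM in both LN_HEV plates, against 222.8, 380.5, 178.9 and 263.6 CPM in the TU_EC plates, and Kcne3, a potassium channel subunit, had 0 and 2.29 CPM in the LN_HEV plates, against 902, 904, 812 and 863 CPM in the TU_EC plates. Apln, the apelin peptide of sprouting cells, had 5.05 and 4.98 CPM in the LN_HEV plates, against 692, 787, 557 and 426 CPM in the TU_EC plates. Igfbp3, a binding protein of insulin-like growth factors, had 45.5 and 10.0 CPM in the LN_HEV plates, against 7705, 9090, 7059 and 7148 CPM in the TU_EC plates. Without the pool1 cell that carried C3, the log2 ratio of Igfbp3 was -9.37, against -8.45 with it. Angpt2, the antagonist ligand of the Tie2 receptor, was the least distant of the 14 at 125.7 CPM in LN_HEV and 714 CPM in TU_EC, and thinned shares of cells with a count were close (49.0% of LN_HEV cells and 54.5% of TU_EC cells). Dll4, the Notch ligand of tip cells, was at 82.2 CPM in LN_HEV and 569 CPM in TU_EC.

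Receptors of VEGF followed the same direction. Of the 8 genes for VEGF receptors, neuropilins, Tie receptors and partners, 0 were called higher and 6 lower, with a median log2 ratio of -2.92. Flt1 was at 220.6 CPM in LN_HEV and 1639 CPM in TU_EC, Kdr, the main signalling receptor, at 160.1 CPM in LN_HEV and 757 CPM in TU_EC, and Nrp1, a co-receptor, at 70.5 CPM in LN_HEV and 544 CPM in TU_EC. Flt4, the VEGF-C receptor, had 10.2 and 7.39 CPM in the LN_HEV plates, against 394, 418, 386 and 378.6 CPM in the TU_EC plates, and outside the 8 lymphatic-marked cells Flt4 was at 339.4 CPM in TU_EC. Counts of Flt4 were found in 7.59% of LN_HEV cells and 76.7% of TU_EC cells. Tek, which encodes Tie2, and Nrp2 were at 103.3 CPM in LN_HEV and 236.04 CPM in TU_EC and at 80.8 CPM in LN_HEV and 127.7 CPM in TU_EC, and neither was called.

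Basement membrane genes were lower as a list, with a median log2 ratio of -3.98 over 18 measured members, 1 of them at least 2-fold higher and 14 at least 2-fold lower. In it 1 gene was called higher and 13 were called lower. The type IV collagen pair had similar ratios: Col4a1 had 202.4 and 258.2 CPM in the LN_HEV plates, against 4440, 5030, 4513 and 4150 CPM in the TU_EC plates, and Col4a2 had 131.8 and 135.7 CPM in the LN_HEV plates, against 3014, 3730, 2917 and 3149 CPM in the TU_EC plates. Sparc, a collagen-binding matricellular protein, had 972 and 817 CPM in the LN_HEV plates, against 8847, 11073, 8541 and 9973 CPM in the TU_EC plates. Of the laminin chains, Lamb1 had 9.21 and 0.0123 CPM in the LN_HEV plates, against 584, 808, 713 and 582 CPM in the TU_EC plates and Lama4 had 6.09 and 12.3 CPM in the LN_HEV plates, against 714, 832, 683 and 719.7 CPM in the TU_EC plates. Other chains did not follow: Lama5 was at 145.6 CPM in LN_HEV and 176.4 CPM in TU_EC, and Lamb2 at 102.4 CPM in LN_HEV and 93.1 CPM in TU_EC. Fn1, fibronectin, had 7.77 and 0.0492 CPM in the LN_HEV plates, against 657, 898, 768 and 662 CPM in the TU_EC plates, and 1 LN_HEV cell reached 10 CPM. Tgfbi, a matrix protein that binds collagen and integrins, was the exception, with 956 and 659 CPM in the LN_HEV plates, against 78.6, 68.7, 95.6 and 30.5 CPM in the TU_EC plates. Among integrins Itgb3 and Itga6 were called lower (3.89 against 103.8 CPM and 44.3 against 243.3 CPM in LN_HEV and TU_EC), whereas the collagen receptor Ddr2 was called higher, with 201.6 and 117.1 CPM in the LN_HEV plates, against 12.9, 0.790, 0 and 1.15 CPM in the TU_EC plates.

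Capillary and arterial genes were lower in LN_HEV as well. Of 11 capillary genes 0 were called higher and 6 lower, and the median log2 ratio was -3.99, or -0.35 when the 11 pool1 libraries that hold TU_HEV counts were kept in. Gpihbp1, the capillary anchor of lipoprotein lipase, had 3.33 and 1.14 CPM in the LN_HEV plates, against 1473, 1786, 1502 and 1654 CPM in the TU_EC plates. Btnl9 had a single count in LN_HEV and 0 and 0.0123 CPM in the LN_HEV plates, against 81.8, 134.7, 100.9 and 117.4 CPM in the TU_EC plates. Plvap, the protein of endothelial diaphragms, and Cav1 were close in both groups, at 3132 CPM in LN_HEV and 4071 CPM in TU_EC and at 734 CPM in LN_HEV and 1079 CPM in TU_EC. Of 14 Notch and arterial genes 0 were called higher and 11 lower, with a median of -3.66. Hey1, a Notch target, had 0 and 0.578 CPM in the LN_HEV plates, against 156.3, 121.3, 132.6 and 236.2 CPM in the TU_EC plates, and Notch4 had 12.7 and 6.86 CPM in the LN_HEV plates, against 341.9, 277.8, 317.4 and 330.6 CPM in the TU_EC plates, while Jag1 was at 41.7 CPM in LN_HEV and 50.7 CPM in TU_EC. The arterial connexins Gja4 and Gja5 were at 39.2 CPM in LN_HEV and 383.6 CPM in TU_EC and at 1.21 CPM in LN_HEV and 49.5 CPM in TU_EC. Hes1 and Nrarp, other Notch targets, were at 30.2 CPM in LN_HEV and 222.3 CPM in TU_EC and at 4.15 CPM in LN_HEV and 166.6 CPM in TU_EC.

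The genes with the largest ratios in this direction were of mixed kinds. Ednrb, the endothelin B receptor, had 0.0233 and 0 CPM in the LN_HEV plates, against 694, 687, 599 and 503 CPM in the TU_EC plates. Its 1 count in LN_HEV, taken as it is, gives a level in TU_EC 77713-fold higher (95% counting interval 13948 to 3069550), and raised to 3 counts it gives 25904.5. Emid1, an extracellular protein, had 0 CPM in both LN_HEV plates, against 315.8, 387, 309.1 and 270.9 CPM in the TU_EC plates. Prdm1, the transcriptional repressor Blimp-1, had 0 CPM in both LN_HEV plates, against 274.5, 279.4, 246.5 and 243.3 CPM in the TU_EC plates. Piezo2, a mechanically gated channel, had 0 CPM in both LN_HEV plates, against 246.9, 260.6, 188.3 and 215.7 CPM in the TU_EC plates. Against the floor of 3 counts over LN_HEV these 3 genes were 13427-fold, 10831-fold and 9430-fold higher in TU_EC, with lower 95% counting limits of 10919, 8808 and 7669. With the 11 pool1 libraries that hold TU_HEV counts kept in, log2 ratios were -4.82 for Ednrb and -4.41 for Prdm1. Without those libraries they were -14.66 and -13.4. Emid1 and Piezo2 were at -13.99 and -13.48 with those libraries kept in. The other genes of the 15 were Cd109, Tacr1 (the substance P receptor), Clca2, Adamtsl2, Btnl9, Dkk2 (a Wnt pathway modulator), Col13a1 (a transmembrane collagen), Ms4a6d, Ttc9, Mcf2l and Adam12 (a metalloprotease), at 79.1 to 176.9 CPM in TU_EC and at most 5 counts in LN_HEV. Tacr1 spread most among TU_EC plates, with 67.7, 136.1, 164.5 and 240.2 CPM.

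By difference in level, the largest after Sparc, Igfbp3 and the collagens was Sparcl1, a matricellular protein known from HEV, with 66.1 and 164.3 CPM in the LN_HEV plates, against 2932, 2996, 2963 and 3052 CPM in the TU_EC plates. Sparcl1 counts were present in 20.7% of LN_HEV cells and 93.4% of TU_EC cells. Vim, the intermediate filament vimentin, had 917 and 538 CPM in the LN_HEV plates, against 3369, 3034, 2875 and 3543 CPM in the TU_EC plates, and its ratio was under 4-fold in 4 of the 17 other settings it was recomputed under. Anxa2, which binds plasminogen with S100a10 at the cell surface, had 118.98 and 158.3 CPM in the LN_HEV plates, against 2424, 1915, 2008 and 2430 CPM in the TU_EC plates, and S100a10 was at 63.4 CPM in LN_HEV and 412 CPM in TU_EC. Sat1, an enzyme of polyamine breakdown, had 117.7 and 269.8 CPM in the LN_HEV plates, against 2382, 2466, 2572 and 2201 CPM in the TU_EC plates. Mest, an imprinted gene, had 20.6 and 1.06 CPM in the LN_HEV plates, against 2168, 1651, 1422 and 1613 CPM in the TU_EC plates. Its log2 ratio was -7.77, against -11.25 without the 3 kept pool1 libraries that hold TU_HEV counts and -3.97 with equal weight per cell.

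General endothelial identity genes differed less than these lists. Of 20 endothelial transcription factors measured, with a median log2 ratio of -0.89, 0 were at least 2-fold higher and 9 at least 2-fold lower. Over all genes with 5 CPM in a group those shares were 13.6% and 22.6%. Only 2 factors were called, both lower, which is near the 8.39% called lower of all genes tested. They were Sox7 (21.0 CPM in LN_HEV and 439.9 CPM in TU_EC) and Bcl6b (10.1 CPM in LN_HEV and 108.1 CPM in TU_EC). Erg was at 44.2 CPM in LN_HEV and 53.0 CPM in TU_EC and Sox18 at 653 CPM in LN_HEV and 864 CPM in TU_EC. Nr2f2, the factor of venous identity, was at 58.9 CPM in LN_HEV and 32.5 CPM in TU_EC, and Klf2, the flow-responsive factor, at 157.8 CPM in LN_HEV and 119.02 CPM in TU_EC. Among junction genes Cdh13 (T-cadherin) had 0 and 1.16 CPM in the LN_HEV plates, against 1218, 1347, 1319 and 1144 CPM in the TU_EC plates, while Jam3 was more than 2-fold higher, at 258.7 CPM in LN_HEV and 68.1 CPM in TU_EC. Cldn5, the tight junction claudin of endothelium, was at 233.4 CPM in LN_HEV and 1068 CPM in TU_EC. Among venous and adhesion genes, whose median log2 ratio of -0.52 became 0.36 with those 11 libraries kept in, Il1r1, the interleukin-1 receptor, was called higher (135.7 CPM in LN_HEV and 25.4 CPM in TU_EC) and Selp, P-selectin, lower (33.7 CPM in LN_HEV and 399 CPM in TU_EC). Vcam1 and Icam1 were at 157.3 CPM in LN_HEV and 95.7 CPM in TU_EC and at 539 CPM in LN_HEV and 343.01 CPM in TU_EC. Guidance genes went both ways: Robo2 had 134.6 and 132.4 CPM in the LN_HEV plates, against 0, 0.263, 0.722 and 0 CPM in the TU_EC plates and Sema5a had 154.003 and 81.5 CPM in the LN_HEV plates, against 0, 0, 0 and 1.21 CPM in the TU_EC plates, whereas Sema6d had 11.3 and 3.65 CPM in the LN_HEV plates, against 558, 683, 585 and 572 CPM in the TU_EC plates.

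Housekeeping lists were close between the groups. Of 20 nuclear-encoded respiratory chain genes 0 were 2-fold apart, with a median log2 ratio of 0.00. Of 24 secretory pathway genes 1 was at least 2-fold higher, Xbp1, a transcription factor of the unfolded protein response, with 833 and 1244 CPM in the LN_HEV plates, against 310.1, 347.4, 359.04 and 461 CPM in the TU_EC plates. Glycolysis and hypoxia genes had a median of -1.52, with 11 of 16 at least 2-fold lower, among them Pkm (584 against 1870 CPM in LN_HEV and TU_EC) and Ldha (331.4 against 1100 CPM), and with the glucose transporter Slc2a1 at 561 CPM in LN_HEV and 265.4 CPM in TU_EC. Cell cycle genes had a median of -2.23, with 14 of 16 at least 2-fold lower and 5 called lower, and the median was -4.21 without pool1 and -1.36 without pool2. Thinned shares of cells with Top2a, a proliferation marker, were 2.76% of LN_HEV cells and 11.1% of TU_EC cells, and Top2a was at 34.8 CPM in pool1 and 0 CPM in pool2. The 14 immediate early and heat shock genes, which can respond to tissue handling, had a median log2 ratio of 0.08. Of these 1 was at least 2-fold higher and 4 at least 2-fold lower. Atf3, Nr4a1, Hspa1a and Hspa1b were called lower (31.8 against 393 CPM for Atf3). Summed, Fos was at 1974 CPM in LN_HEV and 1838 CPM in TU_EC, but the median cell was at 1499 CPM in LN_HEV and 106.3 CPM in TU_EC. For Egr1 the median cell was at 1207 CPM in LN_HEV and 0.805 CPM in TU_EC. The part of handling in other differences was not tested.

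Of the coagulation genes 9 of 11, and of the TGF-beta and BMP genes 10 of 17, were at least 2-fold lower in LN_HEV. Over all genes with 5 CPM in a group that share was 22.6%. Of 11 coagulation and fibrinolysis genes 1 was called higher and 5 lower, with a median log2 ratio of -2.01. The gene called higher was F8, coagulation factor VIII (97.4 CPM in LN_HEV and 7.13 CPM in TU_EC). Plat, tissue plasminogen activator, had 14.6 and 6.24 CPM in the LN_HEV plates, against 405, 228.4, 307.1 and 399 CPM in the TU_EC plates, and Plaur, the urokinase receptor, was also lower (4.24 CPM in LN_HEV and 223.7 CPM in TU_EC). Tfpi, the tissue factor pathway inhibitor, was higher but under 4-fold (603 CPM in LN_HEV and 177.1 CPM in TU_EC). Of 17 TGF-beta and BMP genes 0 were called higher and 4 lower, with a median of -1.20, among them Ctgf and Cyr61, matricellular proteins (12.1 CPM in LN_HEV and 330.3 CPM in TU_EC for Ctgf, and 100.1 CPM in LN_HEV and 649 CPM in TU_EC for Cyr61). Tgfbr3, the co-receptor betaglycan, was more than 4-fold higher between the summed groups (164.5 CPM in LN_HEV and 31.9 CPM in TU_EC) but less than 2-fold in at least 1 plate pair, and was not called.

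The remaining lists held fewer called genes or went both ways. Beside them, 3.85% of all genes tested at 20 CPM were called higher and 8.39% lower, and 1 or 2 called members of a short list are not read as a result. Of 13 integrins and matrix receptors 1 was called higher and 2 lower, with a median log2 ratio of -1.28. Of 12 junction genes 0 were called higher and 4 lower, with a median of -1.39. Of 15 axon guidance genes 2 were called higher and 5 lower, with a median of -1.85. Of 12 lysophospholipid genes 2 were called higher and 2 lower, with a median of -0.81. Of 14 lipoprotein and sterol genes 2 were called each way, with a median near 0. Of 13 eicosanoid and vasoactive genes 2 were called higher and 5 lower, with a median of -1.45, which was -0.0515 with the 11 pool1 libraries kept in. Of 11 immune regulatory ligands 2 were called higher and 4 lower, and the median of -0.08 lay between -0.91 and 0.65 under other settings. Of 7 MHC class II genes Ctss, the protease cathepsin S (56.3 CPM in LN_HEV and 5.81 CPM in TU_EC), was called higher. Of 9 other HEV genes 4 were called higher, Apoe, Ubd, Lrg1 and Ctsl, and Sparcl1 lower, with a median of 2.63.

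Single cells separated the groups on the genes with the largest ratios. Of 14 genes with the largest ratios higher in LN_HEV, a thinned LN_HEV cell held counts of 5 to 14 (median 10) and a thinned TU_EC cell of 0 or 1, with 98.96% holding none. Of the 15 genes with the largest ratios lower in LN_HEV, 98.6% of thinned LN_HEV cells held none and the others 1, and TU_EC cells held 0 to 14 (median 7), with 12 holding none. These genes were chosen on the same cells, so the counts describe them and test nothing. Glycam1 was present in every one of the LN_HEV cells and 0.694% of TU_EC cells, and Chst4 in 97.9% of LN_HEV cells (exact binomial interval 94.1% to 99.6%) and in 0 TU_EC cells, which allows a share of up to 1.04% (3 cells of those thinned). Igfbp3 was present in 6.21% of LN_HEV cells and 85.1% of TU_EC cells, and Gpihbp1 in 3.45% of LN_HEV cells and 81.3% of TU_EC cells. Clu and Apoe were widespread in LN_HEV and present in part of TU_EC (98.6% of LN_HEV cells and 25.3% of TU_EC cells for Clu, and every one of the LN_HEV cells and 12.2% of TU_EC cells for Apoe).

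**Figure D4:**
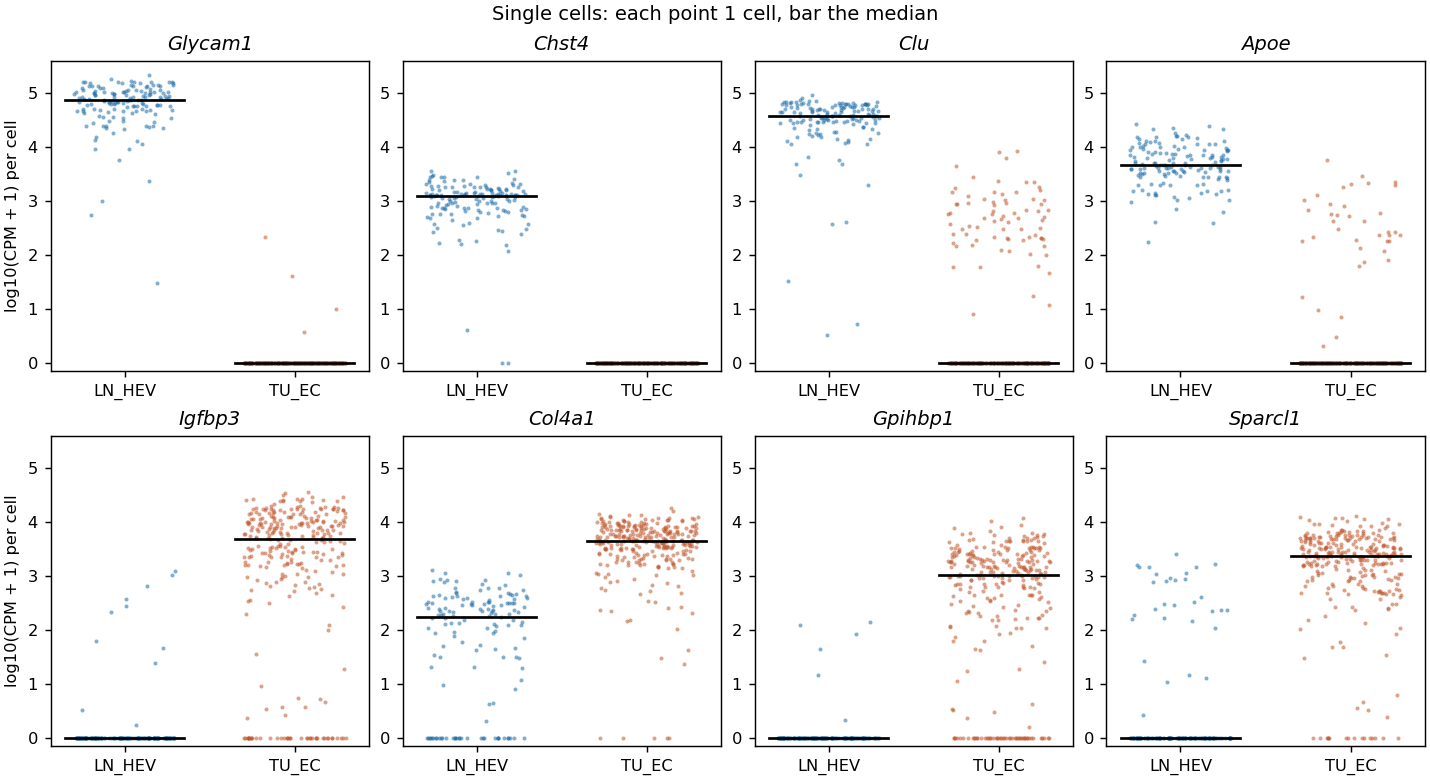
Each point is 1 cell, LN_HEV left of TU_EC in every panel, on a log10(CPM + 1) axis, and the bar is the median over cells. The median TU_EC cell sits at 0 for Glycam1, Chst4, Clu and Apoe, and the median LN_HEV cell at 0 for Igfbp3, Gpihbp1 and Sparcl1, while Col4a1 is present in most cells of both groups.

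Markers of other cell types were examined in both groups, and their part in the results was not tested. Epithelial and tumour markers were at 0 counts in LN_HEV for all 6 genes, and 5 of them had counts in TU_EC, with sums of 11.5, 0, 1.26 and 3.91 CPM by plate. Of these Krt8 had counts in 2 TU_EC cells, Cldn7 in 5 and Epcam in 1. The 6 leukocyte markers summed to 32.5 and 65.1 CPM in the LN_HEV plates and to 0.443 to 10.4 CPM in the TU_EC plates, led by Ptprc (16.7 CPM in LN_HEV and 0 CPM in TU_EC), and counts of T cell and B cell genes lay mostly in the 5 leukocyte-marked cells. The 6 myeloid markers summed to 14.8 and 22.9 CPM in the LN_HEV plates and to 63.5 to 221.4 CPM in the TU_EC plates, nearly all of it Cd14, while Itgam and Fcgr1 had 0 counts in both groups. The 6 mural markers summed to 17.6 and 5.83 CPM in the LN_HEV plates and to 15.1 to 160.9 CPM in the TU_EC plates, with Acta2 at 0 CPM in LN_HEV and 21.0 CPM in TU_EC and Rgs5 at 2.82 CPM in LN_HEV and 20.4 CPM in TU_EC, and 2 TU_EC cells carried 3 or more of them. Fibroblast and reticular cell markers summed to 85.3 and 6.09 CPM in the LN_HEV plates and to 0.263 to 9.18 CPM in the TU_EC plates, and Pdgfra and Cxcl13 had 0 counts in both groups. Of these, Ccl19 had 46.3 and 6.09 CPM in the LN_HEV plates, against 0 CPM in all 4 TU_EC plates and was present in 8.97% of LN_HEV cells, and 69.1% of its counts came from the cell that carried C3. The 6 lymphatic endothelial markers, Flt4 among them, summed to 21.8 and 20.8 CPM in the LN_HEV plates and to 421.4 to 856 CPM in the TU_EC plates. The haemoglobin genes came from 1 cell of pool2, which held 99.99% of the Hbb-bs and 99.96% of the Hba-a1 counts of LN_HEV, and Hbb-bs had 0.0930 and 1220 CPM in the LN_HEV plates, against 1.54, 0, 0 and 0 CPM in the TU_EC plates. Pf4, platelet factor 4, had 597 and 485 CPM in the LN_HEV plates, against 0.308, 0, 1.63 and 1.05 CPM in the TU_EC plates and was present in 84.1% of LN_HEV cells and 1.04% of TU_EC cells, whereas its platelet partner Ppbp had 0 counts in LN_HEV.

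The tumour HEV cells, sorted as CD45-CD31+MECA79+ from PyMT tumours, give a further value for the same genes. They share a file and a library number series with LN_HEV. TU_HEV was at 140.9 CPM for Glycam1, 228.3 CPM for Chst4 and 20.3 CPM for Fut7, and had 0 counts of 3 of the 14 genes with the largest ratios higher in LN_HEV (Lrp2, Nxph1 and Pde1c). For the 15 genes with the largest ratios lower in LN_HEV, TU_HEV ranged from 1.32 CPM (Col13a1) to 138.9 CPM (Prdm1), with 0 of the 15 at 0 counts. For the 10 called higher with the largest difference, TU_HEV ranged from 0.415 CPM (Ccl21a) to 4417 CPM (Lrg1), with a median of 589.9 CPM. Lrg1 was at 4561 CPM in LN_HEV. For the 10 called lower with the largest difference, TU_HEV ranged from 234.97 CPM (Mest) to 3624 CPM (Sparc).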

How the data were processed

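Each well of the 96-well plates held 1 sorted cell, and depletion of CD45-positive and EpCAM-positive cells with beads came before the sort, per the labels. Libraries were made with SMART-seq2 with 23 cycles of PCR, and reads were single-end of 75 bp, per the labels' protocols, without molecular identifiers, so PCR copies cannot be removed. Raw read counts of each gene in each cell were deposited, per the labels. The submitters' processing notes name Subread 1.4.6-p2, STAR 2.4.1b and FastQC 0.11.4 and the genome build mm10 (GRCm38). A gene annotation or strand setting was not given in the sources used here, so antisense and overlapping genes may share reads. The files list 51826 features, 51734 after repeated symbols were summed, and 0 columns were without a sample. Gene positions were matched to GENCODE mouse release 21 for 92.1% of features.

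Counts were summed over the kept cells of a plate or group and scaled to CPM with Python 3.11.15, numpy 2.4.6, pandas 2.3.3 and scipy 1.17.1; figures used matplotlib 3.10.9. A count under 3 was set to 3 in a ratio except where the count is said to be taken as it is, a share of 0 was given a limit of 3 cells of those thinned, and exact 95% Poisson and Clopper-Pearson intervals were computed. Shares of cells come from cells thinned once to 100000 counts, which left out 2 LN_HEV and 11 TU_EC cells. The procedure was run on simulated plate counts with large set changes and without single cells. That checks the calculation and not the calls made here. Doublets were not called, because 1 cell was sorted into each well.

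The 30 gene lists and 11 marker lists, the named genes and the cells were chosen with earlier results of these data known. Named were the 15 called genes with the largest ratio each way (at least 50 CPM, and a count in at least 30% of cells of the higher group), the 10 with the largest CPM difference each way, and list members by role; 1 of the first is not reported here. Gene models without a proper symbol and ribosomal, mitochondrial, immunoglobulin, T cell receptor, haemoglobin and pseudogene names were left out of the first 2. List counts and medians use members with at least 5 CPM in a group. Other totals, cell weights, cell filters, minimum CPM values and plates left out were tried. No test was made, because no label ties a plate to an animal.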

Additional observations from a re-analysis of the deposited data

Results flagged for a closer look

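Over the 4 TU_EC plates, 34 named genes were examined for a plate far from the others, by the gap to its nearest neighbour as a share of the whole range, and 2 stood apart; chance alone flags about 1 group in 20. Adam12 was at 46.47 CPM in poolC, against 88.59 to 94.54 CPM in the other plates. Lrg1 was at 1158 CPM in poolC, against 542.1 to 613.6 CPM in the other plates. Both genes kept their direction between LN_HEV and TU_EC in every plate pair, which the rule for calling them required. The cause of the poolC values was not tested.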

How the results depend on the processing

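Depth limits what a 0 means: 3 counts were worth 0.0241 CPM in LN_HEV and 0.0197 CPM in TU_EC. No paired analysis was possible because the labels give no replicate numbers, only an order of wells, and no test was made. The number of genes called higher stayed within 1.5 times under every other setting except a minimum of 5 CPM (515) or none (950), and the number called lower, 673, lay between 495 and 988 except with no minimum (1233). Leaving out a plate gave 677 to 844 genes called lower. The median log2 ratio of all tested genes, -0.20, was 0.12 with ribosomal RNA in the totals and -0.04 with size factors. Over 30 lists, 479 recomputed medians stayed within 1 SD of the plate pairs, 61 moved, and 0 of those of size 1 or more reversed. Of the recomputed log2 ratios of named genes 660 stayed within that spread, the others moved and 0 reversed, and Vim fell under 4-fold in 4 of 17 settings. Some moves were large. With the 11 pool1 libraries kept in, Btnl9 was at -4.02 against -12.14 in the main setting, whereas Emid1 was at -13.99 against -13.71. With thinned cells Chst4 was at 13.54 against 16.05. The size of the largest folds therefore depends on depth, on the floor of 3 counts and on the libraries left out. 3 settings were chosen after seeing the data: leaving out pool1 libraries S26, S29 and S33 and filtering cells on totals with ribosomal RNA moved no list median, and leaving out the LN_HEV cell with C3 counts moved that of eicosanoid genes to -2.62. The cause of the following shifts was not tested.

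With ribosomal RNA in the totals, medians were 0.34 for sialomucins, -0.46 for lysophospholipid genes, 1.501 for lymphotoxin and NF-kB genes, -0.23 for venous genes, -2.64 for VEGF receptors, -0.61 for transcription factors, -1.11 for junctions, 1.01 for MHC class I, 0.37 for the secretory pathway, 0.29 for the respiratory chain and -1.24 for glycolysis. With size factors they were -1.25 for junctions, 0.22 for the secretory pathway and 0.14 for the respiratory chain. With equal weight per cell they were 0.29 for sialomucins, 0.96 for lymphotoxin genes, -1.27 for junctions, 0.65 for immune ligands, -2.97 for eicosanoid genes, 0.37 for the secretory pathway and 0.16 for the respiratory chain. With thinned cells they were 0.28 for sialomucins, 0.91 for lymphotoxin genes, -1.21 for junctions, -2.94 for eicosanoid genes, 0.33 for the secretory pathway and 0.13 for the respiratory chain. With the 11 pool1 libraries kept in, which hold TU_HEV counts, they were 0.36 for venous, -0.35 for capillary, -3.09 for basement membrane, -3.06 for Notch, -2.24 for VEGF receptor, -0.52 for transcription factor, -0.69 for interferon-stimulated, 0.24 for MHC class II and -0.0515 for eicosanoid genes. Without cells marked as another type they were -5.82 for tip cell and -2.59 for eicosanoid genes, and without lymphatic-marked cells 0.65 for immune ligands and 3.71 for complement. With no minimum CPM they were -0.56 for sialomucins, 2.25 for other HEV genes and -0.91 for immune ligands.

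Leaving out each plate in turn gave medians of 2.41 to 2.99 for other HEV genes, 0.92 to 1.30 for lymphotoxin genes, -0.78 to -0.40 for venous, -5.38 to -3.58 for capillary, -6.12 to -4.97 for tip cell, -4.12 to -3.57 for basement membrane, -1.49 to -0.88 for integrin, -1.48 to -1.35 for junction, -1.998 to -1.287 for axon guidance, -1.58 to -0.99 for interferon-stimulated, 0.37 to 0.79 for MHC class I, -2.50 to -1.87 for coagulation, -3.51 to -1.35 for eicosanoid, -0.564 to 0.0098 for lipoprotein, -0.13 to 0.20 for secretory, -4.21 to -1.36 for cell cycle and -0.50 to 0.21 for immediate early genes.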
